A study of Mus musculus with 6 samples.

Results

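A group of 37 interferon-induced genes was followed in mouse liver. It was made up of 23 genes that respond mainly to type I interferons, 9 GTPases of the interferon-gamma response, and 5 other interferon-induced members. Members were found by symbol among the probe sets that the array annotation pairs with 1 gene: 33 of the 37 had such a probe set, 53 probe sets in all, out of 18193 genes and 34945 probe sets. Isg15, Ifi44, Gbp4 and Tgtp1 had none, and their expression was not analysed here. The promoters of Isg15, Ifi44 and Tgtp1 are among those searched for motifs below. Oasl2 and Mx1 lay in the lowest 40% of probe sets by mean, under an intensity of 48.4, which left 31 members among 13718 genes tested.

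Total RNA came from livers of male mice aged 8 weeks on a mixed background, killed after 24 h without food. One group of 3 arrays carried the genotype Mig-6 f/f, with both Errfi1 alleles floxed, and the other 3 arrays Mig-6 d/d, with the gene deleted. Mig-6, the product of Errfi1, binds the EGF receptor kinase and damps its signalling. The Cre line and the cells in which it was active are not given in the sources used here. Since no label says that the arrays of a group come from separate animals, a p-value here reflects only how far these arrays scatter, and that scatter may be technical. The labels name no interferon treatment and no infection for either genotype.

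Interferons are secreted proteins that make cells resist infection. Type I interferons act through the receptor of Ifnar1 and Ifnar2 and the kinases Jak1 and Tyk2, after which Stat2 and Irf9 join a complex that binds the interferon-stimulated response element (ISRE) before target genes. Interferon-gamma acts through Ifngr1 and Ifngr2 and the kinases Jak1 and Jak2 on the gamma-activated site (GAS), and induces immunity-related GTPases and guanylate-binding proteins that attack the vacuoles of intracellular pathogens. Hepatocytes, liver macrophages and lymphocytes all respond to these cytokines, and a low tonic response is present in healthy tissue.

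The promoters of 4 members that the results turn on are printed from the RefSeq table for build GRCm38.p6, as windows of 250 bases before to 50 bases after the start of transcription. They were chosen because Rsad2, Ifit1 and Igtp are among the members with the smallest p-values, and Irgm2 is the next gene to Igtp on the chromosome. Each is written 5′ to 3′ on the strand of its gene, and capitals mark matches to the ISRE core (GAAA, any 2 bases, GAAA) on either strand and to the GAS core TTCNNNGAA, which reads the same on both. Rsad2 lies at chr12:26456403-26456702, minus strand. Ifit1 lies at chr19:34640639-34640938, plus strand. Igtp lies at chr11:58199306-58199605, plus strand, and Irgm2 at chr11:58214727-58215026, plus strand.
Rsad2: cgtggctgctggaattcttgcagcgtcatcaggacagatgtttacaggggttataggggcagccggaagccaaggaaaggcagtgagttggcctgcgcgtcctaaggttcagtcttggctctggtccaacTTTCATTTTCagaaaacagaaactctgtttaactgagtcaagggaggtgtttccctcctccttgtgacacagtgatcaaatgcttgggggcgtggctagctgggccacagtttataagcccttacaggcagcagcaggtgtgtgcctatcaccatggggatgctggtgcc
Ifit1: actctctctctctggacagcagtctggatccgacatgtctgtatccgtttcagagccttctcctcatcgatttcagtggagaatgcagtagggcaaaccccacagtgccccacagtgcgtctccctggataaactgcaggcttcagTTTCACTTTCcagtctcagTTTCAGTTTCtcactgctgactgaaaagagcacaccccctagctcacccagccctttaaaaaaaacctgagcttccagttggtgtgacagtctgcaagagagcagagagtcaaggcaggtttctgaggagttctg
Igtp: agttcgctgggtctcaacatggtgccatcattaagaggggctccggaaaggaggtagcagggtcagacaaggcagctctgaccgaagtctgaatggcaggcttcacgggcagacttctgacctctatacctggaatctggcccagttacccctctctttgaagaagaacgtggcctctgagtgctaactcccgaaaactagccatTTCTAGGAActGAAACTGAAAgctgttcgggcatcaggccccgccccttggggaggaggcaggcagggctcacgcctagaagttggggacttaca
Irgm2: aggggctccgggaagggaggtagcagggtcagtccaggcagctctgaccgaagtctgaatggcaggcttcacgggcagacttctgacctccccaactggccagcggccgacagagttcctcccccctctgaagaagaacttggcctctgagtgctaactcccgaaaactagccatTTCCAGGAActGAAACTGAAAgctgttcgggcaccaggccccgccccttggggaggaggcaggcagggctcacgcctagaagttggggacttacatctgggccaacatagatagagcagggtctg

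The ISRE match of Rsad2 began 120 bases upstream of the start, and Ifit1 had 2, at 104 and 85 bases upstream. Igtp and Irgm2 each carried a GAS match just before an ISRE match, at 45 and 34 bases upstream in Igtp and at 75 and 64 in Irgm2. The longest run of identical letters in these 2 windows was 61 bases, so this pair of neighbours shares promoter sequence as well as a protein family. Windows were found for 28 of the 37 members. Iigp1, the member with the smallest p-value, had no window, and neither had Usp18 or Parp14. The ISRE core was present in 16 of the 28, against 3.99% of 27025 genes in the table, and the GAS core in 8, against 9.55%. All 6 GTPases with a window (Gbp2, Gbp3, Igtp, Irgm1, Irgm2 and Tgtp1) held the ISRE core and 3 of them the GAS core. Of 17 type I-type genes, 9 held the ISRE core and 3 the GAS core. These matches describe the letters of the windows and do not show binding.

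Errfi1 itself read 5371, 5424 and 5686 on the f/f arrays and 68, 61.8 and 59.6 on the d/d arrays, so the genotype labels were borne out on each array. The median intensity of an array ran from 55.6 to 65.4 as deposited. Precision is limited by how many arrays there are. One array, f/f replicate 3, was least like the rest: its mean correlation with the others was 0.952, where theirs were 0.974 to 0.978. Of 14 hepatocyte markers, 12 had a probe set paired with 1 gene. All 12 passed the filter and none passed the test. At an unadjusted p under 0.05 (limma) 0 were higher and 1 lower (Tat), beside 4.77% and 3.07% of all genes. A difference below is the d/d mean less the f/f mean of quantile-normalized log2(intensity + 16), given with limma's standard error (n = 3 arrays of each genotype). For dim genes this scale makes a difference look smaller than it is. Whether fewer cells of a type or less RNA per cell lies behind a difference cannot be told apart in whole liver.

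Most of the members tested lay slightly higher in the d/d livers, by amounts that did not pass the test across all genes. The members were chosen with earlier results of these data known. A longer list of 47 further interferon-induced genes, read below, had 25 positive and 22 negative differences and a median of 0.031. Of the 31 members tested, 25 had a positive difference and 6 a negative one, with a median of 0.15, where 46.5% of all genes were positive and their median was -0.015. In limma with Benjamini-Hochberg adjustment 0 of the 31 passed, where 0.0948% of all genes did. At an unadjusted p under 0.05 there were 6 members, all higher in d/d, against 4.77% of all genes in that direction. These 6 were Iigp1, Igtp, Rsad2, Ifit1, Usp18 and Parp14. The normalized groups did not overlap for 9 members, again all higher in d/d, against 7.9% of genes higher and 6.79% lower. Without f/f replicate 3 the unadjusted count was 8 higher and 1 lower (Irf1), against 5.88% and 5.34% of all genes, and 11 of 31 members then had all d/d arrays above both f/f arrays, against 13.5% of all genes.

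**Figure D1:**
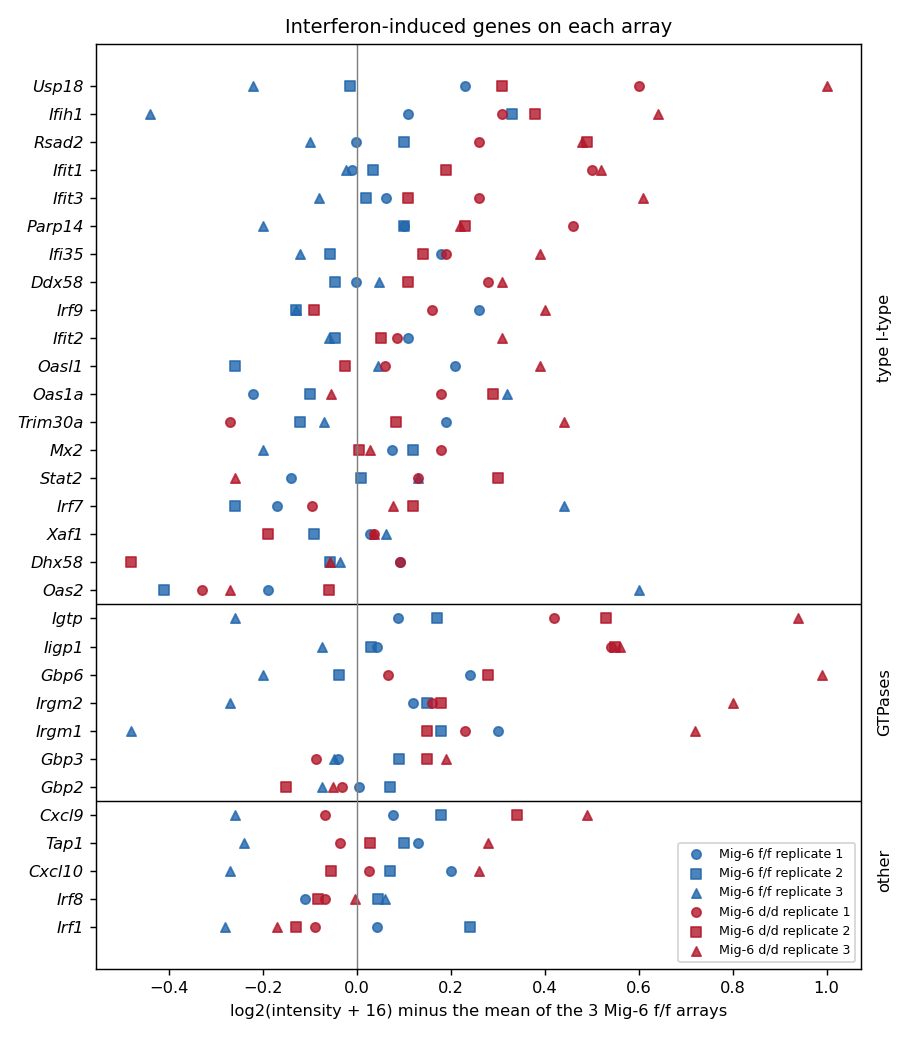
Each point is 1 array, plotted as its log2(intensity + 16) after normalization minus the mean of the 3 Mig-6 f/f arrays (x axis), for the 31 members tested (y axis), with f/f in blue and d/d in red and the replicate given by the marker. Iigp1, Igtp, Usp18, Rsad2 and Ifit1 have all red points to the right of the blue ones, and d/d replicate 3 reads highest for 19 of the 31 members.

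The spread of single arrays was part of this picture. On d/d replicate 3 the reading was the highest of all 6 arrays for 19 of the 31 members, against 16.1% of all genes, and on f/f replicate 3 it was the lowest for 18, against 32.4%. The median over the members, relative to the f/f mean, was 0.077, 0.031 and -0.08 on the f/f arrays and 0.13, 0.12 and 0.31 on the d/d arrays, so the groups did not overlap. The part of f/f replicate 3 in these values was not tested beyond leaving it out, which gave a median of 0.15, and leaving out d/d replicate 3 also gave 0.15. Positive differences numbered 24 of 31 without f/f replicate 3, beside 6575 of 13698 genes in that fit. Without d/d replicate 3 they numbered 21 of 30, beside 6541 of 13749 genes. Without f/f replicate 1 the median was 0.24. In the fits that left out 1 array each, Iigp1, Igtp, Rsad2, Ifit1 and Usp18 had an unadjusted p under 0.05 every time. Those fits reuse the arrays that gave these genes their small p-values, so they are no separate support. How many of all genes did the same is not given here.

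Among effectors of the type I-type response, Rsad2 (viperin), which blocks viral replication at lipid droplets and in the ER, read 135, 147 and 140 in f/f and 167, 203 and 199 in d/d. All d/d arrays lay above all f/f arrays, and the log2 difference was 0.41 ± 0.12 (unadjusted p = 0.00742, limma, Benjamini-Hochberg adjusted p = 0.348). The other 2 probe sets of Rsad2 had 0.30 and 0.55, so every probe set of the gene lay higher.

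The Ifit genes lie side by side and encode proteins that bind foreign RNA ends. Ifit1 read 86, 89.9 and 97.5 in f/f and 134, 108 and 131 in d/d, a log2 difference of 0.40 ± 0.12 with groups apart (unadjusted p = 0.00999, limma, Benjamini-Hochberg adjusted p = 0.388). Ifit3 read 78.7, 76.4 and 80.7 against 96.2, 88.6 and 122, with 0.32 ± 0.14 (limma, Benjamini-Hochberg adjusted p = 0.639). Its groups were apart too, though d/d replicate 3 gave much of the size, and without that array the difference was 0.18. Ifit2 read 51.5, 44.8 and 50.9 against 52.7, 52.2 and 60.3, close to the filter on dim probe sets, and had 0.15 ± 0.12. Probe sets of this family may also catch near-identical copies.

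Usp18, which removes ISG15 from proteins and dampens signalling at the type I receptor, had the largest difference of the type I-type genes tested. It read 79.5, 65.1 and 62.6 in f/f and 111, 91.4 and 149 in d/d, and the groups did not overlap. The difference was 0.63 ± 0.19, or 1.55 times on the scale with 16 added (unadjusted p = 0.0102, limma, Benjamini-Hochberg adjusted p = 0.388). It was 0.45 without d/d replicate 3, its highest array. Parp14, an ADP-ribosyltransferase, read 118, 118 and 105 against 159, 137 and 130, with 0.30 ± 0.13 and groups apart (unadjusted p = 0.0478). Its other probe set, at 0.057, showed little difference.

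The cytosolic RNA sensors differed among themselves. Ifih1 (MDA5), a sensor of long double-stranded RNA, read 209, 247 and 150 in f/f and 241, 260 and 316 in d/d, a difference of 0.44 ± 0.20. Its groups overlapped by one array, and leaving out f/f replicate 3, the lowest, gave 0.22. Ddx58 (RIG-I), which senses RNA with 5′ triphosphate ends, read 148, 144 and 167 against 187, 168 and 191, with 0.23 ± 0.11. The Ddx58 groups were barely apart, and its dimmer probe sets had -0.022 and 0.15. Dhx58 (LGP2), a regulator of both sensors, was dim and had -0.15 ± 0.16, with 95% limits of -0.50 and 0.21. It turned to 0.018 without d/d replicate 2, and its other probe sets had 0.064 and 0.068.

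The oligoadenylate synthetases, which switch on RNase L when they meet double-stranded RNA, showed no common shift. Oas1a read 122, 136 and 199 in f/f and 170, 188 and 139 in d/d (0.14 ± 0.17), and Oas2 read 124, 105 and 240 against 115, 144 and 117 (-0.22 ± 0.24). On both, f/f replicate 3 was the highest array, and without it they had 0.31 and 0.081, so the sign of Oas2 turned. Oasl1, a translational regulator of Irf7, had 0.14 ± 0.16, and Oasl2 was under the filter at 24 to 38.5.

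The transcription factors of the type I pathway were near equal in both genotypes. Irf7, the master regulator of interferon alpha genes, read 122, 114 and 208 in f/f and 133, 159 and 149 in d/d, a difference of 0.033 ± 0.19 with limits of -0.39 and 0.46. One f/f array lay far above the other 2: the Irf7 difference was 0.26 without it and -0.10 without f/f replicate 2. Stat2 had 0.055 ± 0.16 with limits of -0.31 and 0.42, and Irf9 0.16 ± 0.16 with limits of -0.22 and 0.53. These intervals are wide and do not show that the levels were alike.

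The remaining type I-type genes had small differences. Ifi35 read 463, 391 and 372 against 458, 448 and 543 (0.24 ± 0.13), with overlapping groups and other probe sets at -0.015 and 0.24. Mx2, a dynamin-like GTPase, had 0.07 ± 0.12, Trim30a, an inhibitor of inflammatory signalling, 0.084 ± 0.19, and Xaf1, a promoter of cell death, -0.038 ± 0.11. The signs of these last 3 turned when single arrays were left out. Mx1, for which many laboratory strains carry a defective allele, was under the filter at 37.5 to 56.9. Over the 19 type I-type genes tested, 16 differences were positive, beside 46.5% of all genes, and the median was 0.15. At an unadjusted p under 0.05 (limma) 4 were higher, beside 4.77% of all genes in that direction.

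**Figure D2:**
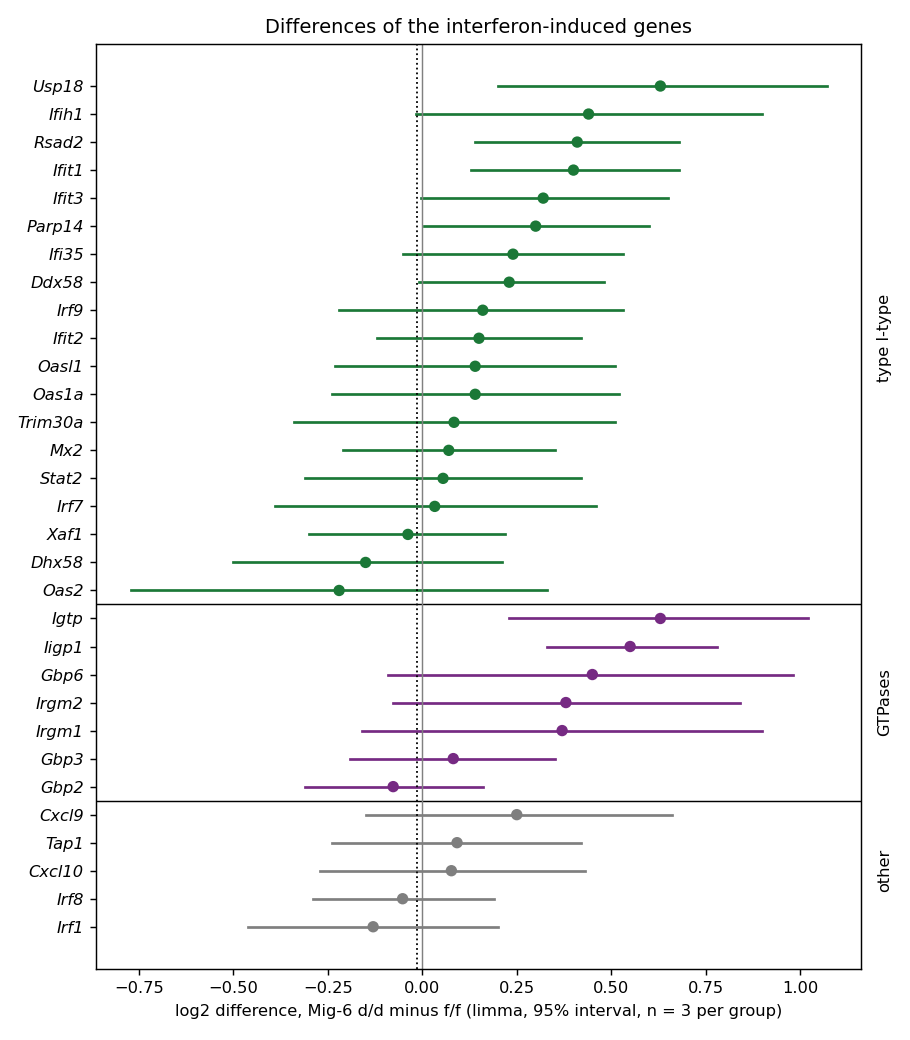
Points give the log2 difference of Mig-6 d/d minus f/f (x axis) and lines its 95% interval from limma, n = 3 per group, for each member tested (y axis), with type I-type genes in green, GTPases in purple and the others in grey. The dotted line is the median of all genes, at -0.015, and 6 of the 31 intervals, those of Usp18, Rsad2, Ifit1, Parp14, Igtp and Iigp1, lie wholly above 0.

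The immunity-related GTPases had larger differences than most type I-type genes, and Iigp1 was the member with the smallest p. Iigp1 (Irga6), an effector that coats pathogen vacuoles, read 2225, 2223 and 2026 in f/f and 3030, 3100 and 3086 in d/d. The 3 d/d readings lay close together and far above the f/f arrays, at 3072 ± 36.9 against 2158 ± 115 (SD, n = 3). The log2 difference was 0.55 ± 0.10, or 1.47 times, with limits of 0.33 and 0.78 (unadjusted p = 0.000465, limma, Benjamini-Hochberg adjusted p = 0.121). Its other probe set read 1661, 1590 and 1319 against 1936, 2039 and 2237, with 0.47 ± 0.12, so both agreed in direction and groups did not overlap on either. Iigp1 was the one member that passed in any alternative run. It did so with a trended and robust variance (limma, adjusted p = 0.036), where 0.153% of all genes passed, and under array weights (limma, adjusted p = 0.0174), where 1.57% did. Its adjusted p in the alternatives spanned 0.0174 to 0.593.

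Igtp (Irgm3), a regulator that keeps the effector GTPases off the cell's own membranes, read 275, 293 and 222 in f/f and 349, 383 and 517 in d/d. Groups were apart, and the difference was 0.63 ± 0.17, or 1.55 times (unadjusted p = 0.00621, limma, Benjamini-Hochberg adjusted p = 0.319). It was 0.47 without d/d replicate 3. Its neighbour Irgm2, with the like promoter printed above, read 134, 138 and 110 against 140, 146 and 230. The Irgm2 groups were apart by a narrow margin, with 1 d/d array far above the other 2, and the difference of 0.38 ± 0.20 was 0.17 without that array. Irgm1, which also serves autophagy, read 279, 255 and 167 against 264, 254 and 387, with 0.37 ± 0.23. Here the groups overlapped: the size came from f/f replicate 3 at the low end and d/d replicate 3 at the high end, and without the former it was 0.13.

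The guanylate-binding proteins were dim in these livers. Gbp6 read 58.1, 45.2 and 44.4 in f/f and 51.9, 64.7 and 108 in d/d, a difference of 0.45 ± 0.23 with overlapping groups, and 0.18 without d/d replicate 3. Gbp3 had 0.082 ± 0.12 and Gbp2 -0.077 ± 0.10, both with readings between 43.6 and 55.5, near the filter at 48.4. At such intensities a difference is hard to detect.

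Over the 7 GTPases tested, 6 differences were positive, beside 46.5% of all genes. At an unadjusted p under 0.05 (limma) 2 were higher, beside 4.77% of all genes in that direction. The median was 0.38, beside 0.15 for the type I-type genes. The gap between the medians was not tested, as members share their arrays. On the f/f arrays the GTPase median, relative to the f/f mean, was 0.087, 0.089 and -0.20, and on the d/d arrays 0.16, 0.18 and 0.72. The d/d arrays lay above the f/f arrays, but replicates 1 and 2 of d/d were close to replicates 1 and 2 of f/f, and replicate 3 of each genotype gave most of the gap. Without d/d replicate 3 the median was 0.18, near the type I-type value of 0.17 in that fit. It was 0.25 without f/f replicate 3 and 0.20 with array weights, where the type I-type median was 0.18 in both.

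**Figure D3:**
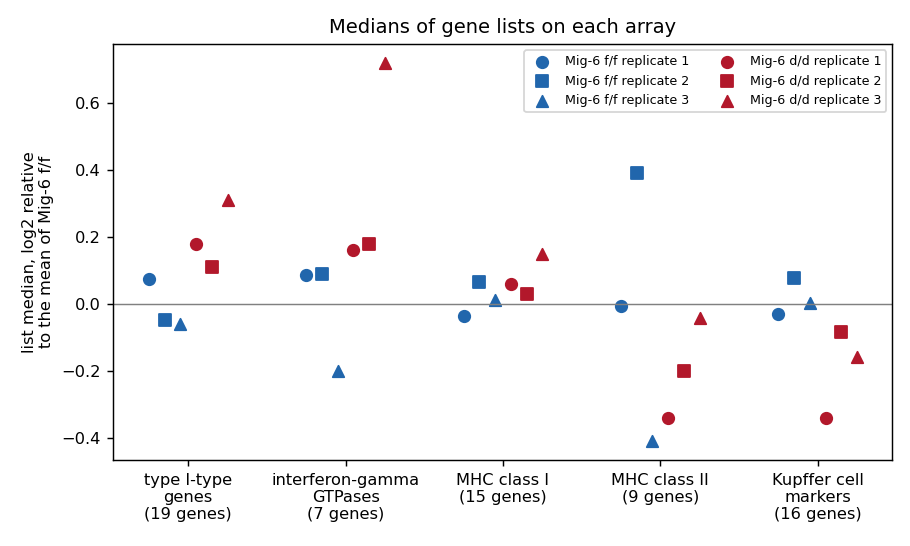
Each point is the median of a gene list on 1 array, in log2 relative to the mean of the 3 Mig-6 f/f arrays (y axis), for 5 lists (x axis), with f/f in blue and d/d in red and the replicate given by the marker. The GTPase median reaches 0.72 on d/d replicate 3, and the MHC class II median reaches 0.39 on f/f replicate 2.

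The 5 other interferon-induced members had differences between -0.13 and 0.25. At an unadjusted p under 0.05 (limma) 0 were higher and 0 lower, beside 4.77% and 3.07% of all genes. Irf1, a transcription factor induced early by interferon-gamma, read 195, 226 and 165 in f/f and 177, 175 and 166 in d/d, with -0.13 ± 0.14. The Irf1 groups overlapped, and without f/f replicate 3 it had -0.27. Cxcl9 and Cxcl10, chemokines that draw T cells through CXCR3, had 0.25 ± 0.18 and 0.077 ± 0.15. The limits of Cxcl9 were -0.15 and 0.66, and its other probe set had -0.095. It had 0.42 without d/d replicate 1 and 0.12 without f/f replicate 3. Tap1, the peptide transporter of MHC class I loading, had 0.092 ± 0.14, with other probe sets from -0.17 to 0.043. Cxcl10 and Tap1 turned negative without f/f replicate 3, at -0.059 and -0.026. Irf8, a factor of myeloid cells, had -0.052 ± 0.10 on the probe set used and 0.28 on its other one.

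The rest of the pathway was read from lists of interferons, receptors and signalling proteins, sensors, presentation genes and further induced genes. In limma with Benjamini-Hochberg adjustment 0 genes of these lists passed. At an unadjusted p under 0.05 there were 1 higher and 0 lower of 6 interferons and inducers tested, 1 and 2 of 20 receptors and signalling genes, 1 and 0 of 18 sensing genes, 0 and 1 of 15 class I genes, 0 and 1 of 9 class II genes, and 3 and 1 of 47 further induced genes. Beside 4.77% and 3.07% of all genes, counts this small set none of these lists apart.

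Of 17 interferons and inducers listed, 11 had a probe set paired with 1 gene, and 6 of those passed the filter. Ifng and Ifnb1 were not among the 6. Ifna2 read 104, 92 and 113 in f/f and 181, 150 and 134 in d/d, a difference of 0.54 ± 0.13 with groups apart (unadjusted p = 0.00252, limma, Benjamini-Hochberg adjusted p = 0.235). Array weights brought it past the threshold (limma, adjusted p = 0.0389), within a span of 0.0389 to 0.782 in the alternatives. It is the one probe set of that name, in a family of near-identical genes, and Ifna1 had 0.094 ± 0.11. Il12b, an inducer of interferon-gamma, had -0.19 ± 0.23.

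None of the receptor chains and kinases passed the test. Ifnar1 had 0.082 ± 0.15, Ifnar2 -0.027 ± 0.11, Ifngr1 0.13 ± 0.13 and Ifngr2 0.05 ± 0.14. Jak1 read 358, 393 and 295 against 409, 416 and 416, with 0.26 ± 0.13. All d/d arrays of Jak1 lay above all f/f arrays, and its other probe sets had 0.13 and 0.17, but without f/f replicate 3, the lowest, the difference was 0.14. Jak2 had -0.047 ± 0.10 and Tyk2 0.0011 ± 0.11, with the sign of Tyk2 turning to -0.021 on the values as deposited.

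Irf2, a factor that competes with Irf1 at the same elements, stood out among the signalling genes. It read 355, 419 and 486 in f/f and 690, 709 and 670 in d/d, so that the lowest d/d array lay well above the highest f/f array. The difference was 0.71 ± 0.13 (unadjusted p = 0.000554, limma, Benjamini-Hochberg adjusted p = 0.125). Leaving out f/f replicate 3 brought it past the threshold, at 0.81 (limma, adjusted p = 0.0192), as did array weights (limma, adjusted p = 0.0068). Array weights counted f/f replicate 3 at only 0.178, so these fits are much alike. Over all genes 91 and 215 passed in them, against 13 in the main fit. The adjusted p of Irf2 in the alternatives spanned 0.0068 to 0.593. Irf3, which acts below the RNA sensors, had -0.094 ± 0.11.

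Of the inhibitors, Socs3, a feedback inhibitor of cytokine receptors, read 89.7, 178 and 135 in f/f and 46.1, 104 and 66.2 in d/d, with -0.75 ± 0.27 and overlapping groups (unadjusted p = 0.0241). Socs1, the inhibitor of the interferon-gamma receptor, had 0.00099 ± 0.12, and -0.018 on the values as deposited. Ptpn6 (SHP-1), a phosphatase of blood cells, read 207, 200 and 210 against 168, 167 and 174. Its groups were tight and apart, with -0.25 ± 0.10 on both probe sets (unadjusted p = 0.0344 on the one used).

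Among sensing genes, Ikbke, a kinase that phosphorylates Irf3 and Irf7, had 0.51 ± 0.20 (unadjusted p = 0.032), Zbp1, a sensor of Z-form nucleic acid, 0.30 ± 0.14, Tlr4 0.26 ± 0.14, Mavs, the adaptor of the RNA sensors, 0.31 ± 0.25 and Tlr3 0.14 ± 0.12. Zbp1 had groups apart, at 62.7, 75 and 72.4 in f/f and 79.8, 82.7 and 105 in d/d, though its other probe set had -0.013 and without d/d replicate 3 the difference was 0.17. The groups of Tlr3 were apart as deposited (54.5, 57.5 and 50 against 59.2, 60.2 and 60.5) and overlapped after normalization, and those of Ikbke, Tlr4 and Mavs overlapped.

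Of the class I presentation genes, 9 of 15 were positive, beside 46.5% of all genes, with a median of 0.09. With every probe set taken on its own, 27 of 36 were positive and the median was 0.091. The immunoproteasome subunits Psmb8 and Psmb9 had 0.26 ± 0.12 and 0.09 ± 0.23, the class I activator Nlrc5 0.27 ± 0.16, B2m 0.11 ± 0.11 and Pdia3, a chaperone of peptide loading, 0.25 ± 0.13. Tap2, the partner of Tap1, read 89.7, 118 and 132 against 80.4, 95.1 and 75.2, with -0.35 ± 0.13. After normalization its groups were apart, in the direction opposite to most members.

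Class II genes, which interferon-gamma induces through Ciita in antigen-presenting cells, had 0 positive and 9 negative differences of 9 tested, with a median of -0.17. Of all genes, 46.5% were positive. Ciita read 74, 52 and 84.5 in f/f and 50.1, 54.1 and 31.6 in d/d, with -0.48 ± 0.17 (unadjusted p = 0.0225), while its other probe sets had 0.023 and 0.048. Without f/f replicate 1 the gene was read from another of these probe sets, and its value was -0.00059. Cd74, the invariant chain, had -0.24 ± 0.26, H2-Oa -0.17 ± 0.11 and H2-DMa -0.16 ± 0.12. The direction rested on f/f replicate 2, the highest array for 6 of the 9: without it the median was 0.043 and 6 of 9 were positive. Without f/f replicate 3 the median was -0.40, and 5 of the 9 were lower at an unadjusted p under 0.05, beside 5.34% of all genes.

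**Figure D4:**
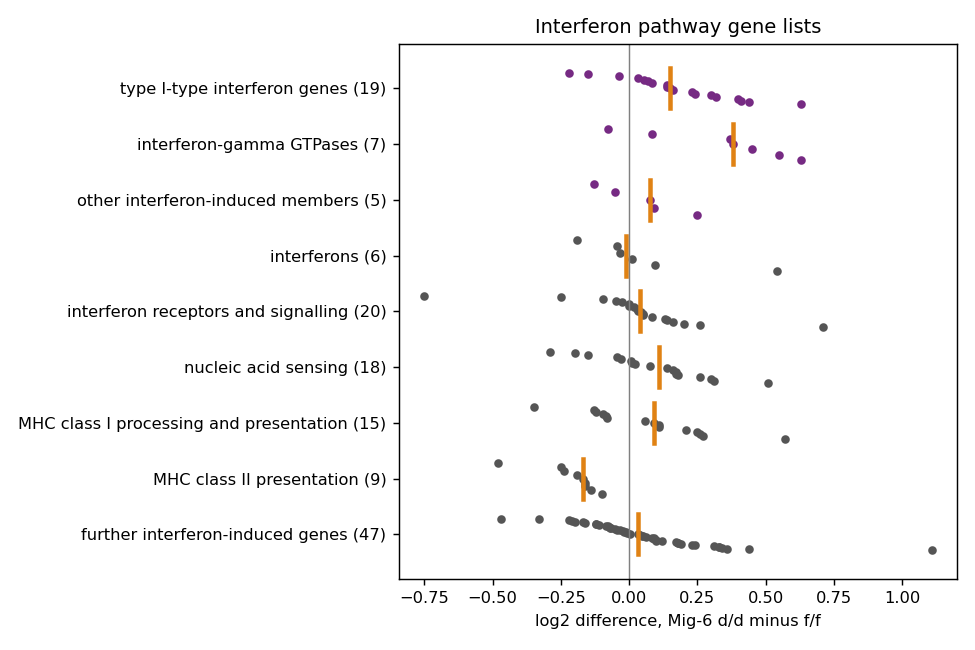
Each point is the log2 difference of Mig-6 d/d minus f/f (x axis) of 1 gene, by list (y axis, number of genes tested in brackets), with members in purple, other pathway genes in grey and the median of each list as an orange bar. The medians are 0.15 for type I-type genes, 0.38 for GTPases, -0.17 for class II genes and 0.031 for the further induced genes.

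Of the further interferon-induced genes, 25 of 47 were positive, beside 46.5% of all genes, and their median was 0.031. How this list and the members differ was not tested. Ly6e, a membrane protein that limits entry of some viruses, read 799, 1459 and 955 in f/f and 2011, 2189 and 2428 in d/d. Groups were far apart, at 1.11 ± 0.20 (unadjusted p = 0.00056, limma, Benjamini-Hochberg adjusted p = 0.125), though its other probe set had 0.16. Leaving out f/f replicate 2 brought it past the threshold (limma, adjusted p = 0.036), as did array weights (limma, adjusted p = 0.0378). The alternatives gave Ly6e an adjusted p between 0.036 and 0.593.

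Bst2 (tetherin), which holds budding virus at the membrane, read 243, 274 and 331 against 324, 355 and 393, with 0.33 ± 0.13. Cmpk2, which lies beside Rsad2 and is induced with it, read 55.2, 48.5 and 82 against 73.2, 84.7 and 85.8, with 0.36 ± 0.14. Both lay in the direction of Rsad2, and on both f/f replicate 3 was the highest f/f array. Tor3a had -0.47 ± 0.18, with other probe sets at -0.069 and -0.018, and -0.30 without f/f replicate 2. Under array weights it was past the threshold (limma, adjusted p = 0.0352), where its alternatives spanned 0.0352 to 0.971. Eif2ak2 (PKR), which halts translation, had -0.20 ± 0.12, while its other probe sets had 0.055 and 0.35. Samhd1 had 0.062 ± 0.11, and the GTPases Ifi47 and Gbp7 0.18 ± 0.24 and 0.092 ± 0.11.

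Markers of cells that respond to interferon were read on the same arrays. Of 16 markers of Kupffer cells and macrophages, all of which passed the filter, 13 were lower and 3 higher in d/d, with a median of -0.24. Their summed intensity was 5497 to 6593 in f/f and 5276 to 6424 in d/d. The brightest, Slc40a1, made up a large part of that sum and went the other way from most. It read 1629, 1758 and 1584 in f/f and 2033, 2323 and 1910 in d/d. C1qa, C1qc, Cd163 and Lyz2 were lower and Slc40a1 higher at an unadjusted p under 0.05, which makes 4 and 1 of 16, beside 3.07% and 4.77% of all genes. Cd163, a scavenger receptor, had -0.69 ± 0.18, and array weights brought it past the threshold (limma, adjusted p = 0.0419, with 0.0419 to 0.782 in the alternatives). Without d/d replicate 1 the Kupffer median was -0.15, and 1 marker was lower at that level. Of 22 T and NK cell markers, 19 had a probe set paired with 1 gene, and 13 of those passed the filter. Among the 13, 3 were higher, and 0 of the 13 had an unadjusted p under 0.05. Their summed intensity was 870 to 1389 in f/f and 863 to 1008 in d/d. Of 12 dendritic cell markers, 11 had a probe set paired with 1 gene, and 9 of those passed the filter. Among the 9, 4 were higher, 2 of them at an unadjusted p under 0.05, beside 4.77% of all genes. These were Bst2, which is also on the list of further induced genes, and Ly6d, chosen after its values were seen, at 0.64 ± 0.21 with groups apart. The dendritic cell median was -0.078, and the summed intensity 1061 to 1514 in f/f and 1230 to 1262 in d/d. Of neutrophil and monocyte markers 5 of the 10 tested were higher, 1 of them at an unadjusted p under 0.05. Endothelial, stellate and cholangiocyte markers had medians of 0.03, -0.048 and 0.021. The part of these cells in the members' differences was not tested.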

How the data were processed

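Biotin-labelled liver RNA was read on Affymetrix mouse arrays, per the labels. The authors deposited intensities on a linear scale for 45101 probe sets on each of 6 arrays. Their summarization and scaling are not given in the sources used here. The array annotation named 34945 probe sets with 1 gene. Intensities were used as log2(intensity + 16) and quantile normalized. Probe sets in the lowest 40% by mean, a log2 value of 6.01, were left out, and each gene was read from its brightest probe set. The 2 genotypes were set against each other in limma 3.58.1 (lmFit, eBayes; R 4.3.3) with no covariate and Benjamini-Hochberg adjustment over 13718 genes and a threshold of 0.05. The fit was tested on simulated data. The members and lists were chosen with earlier results of these data known, so lists are given as counts and medians. Named genes are the members, Errfi1, 28 fixed key genes where tested, and the 3 smallest p-values of each pathway list. Other genes, among them C1qa, C1qc, Cd163, Lyz2, Slc40a1, Ly6d and Ms4a1, were chosen after their values were seen. Promoter windows come from RefSeq and were searched in Python 3.11.15. Plots used matplotlib 3.10.9. Alternatives covered scaling, the filter, probe sets, variance, pseudocounts of 1 and 64, a replicate block, weighted arrays and leaving out each array. Outliers were not tested, as groups hold 3 arrays.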

Additional observations from a re-analysis of the deposited data

How the results depend on the processing

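The members' median stayed positive in all 18 alternatives, and the count of members past the threshold was 0 except with array weights and with a trended, robust variance (1 each, Iigp1). Without the lowest 60% of probe sets the median was 0.25. With 1 array left out the members' median ran from 0.14 to 0.24, that of type I-type genes from 0.13 to 0.22 and that of GTPases from 0.18 to 0.52, and 5 to 9 members had an unadjusted p under 0.05. Over all genes 13 passed, but 215 with array weights, 21 with a trended, robust variance, 20 with every probe set tested on its own, and 6 with the replicate block. Leaving out 1 array gave 4 (d/d replicate 1) to 91 (f/f replicate 3). Array weights counted f/f replicate 3 at 0.178 and the others at 0.963 to 1.84, which comes close to leaving it out. The passes of Irf2, Ifna2, Ly6e, Tor3a, Cd163 and Ms4a1 under array weights are among those 215 genes. Same-numbered arrays did not deviate together (correlations of -0.0033, -0.144 and -0.465), and unlike-numbered ones ran from -0.466 to 0.43. Each group of 3 arrays was centred first, which ties these values together, so a shared batch cannot be read from them. With the block 5 members had an unadjusted p under 0.05, all higher in d/d, beside 3.31% of all genes in that direction. The sign held in every alternative for 21 of 31 members. Under array weights it turned for Oas2 (0.028), Trim30a (-0.013), Cxcl10 (-0.057), Tap1 (-0.04), Ifnar1 (-0.053), Ifnar2 (0.038), Ifngr2 (-0.025), Tyk2 (-0.012), Ifi47 (-0.076) and Il12b (0.058). Averaged over probe sets it turned for Xaf1 (0.0098), Irf8 (0.11), Jak2 (0.068), Eif2ak2 (0.069), Samhd1 (-0.027) and Pdia3 (-0.021), as deposited for Tyk2 (-0.021) and Socs1 (-0.018), and with a pseudocount of 64 for Irf8 (0.17), where its other probe set was the higher. With 1 array left out the sign turned for Irf7 (-0.10 to 0.26), Oas2 (-0.42 to 0.081), Mx2 (-0.028 to 0.13), Stat2 (-0.067 to 0.21), Dhx58 (-0.27 to 0.018), Xaf1 (-0.084 to 0.037), Trim30a (-0.095 to 0.26), Irf8 (-0.076 to 0.29), Cxcl10 (-0.059 to 0.18), Tap1 (-0.026 to 0.16), Ifnar1 (-0.047 to 0.20), Ifnar2 (-0.091 to 0.021), Ifngr2 (-0.033 to 0.15), Tyk2 (-0.049 to 0.059), Socs1 (-0.046 to 0.079), Psmb9 (-0.20 to 0.32), Cd74 (-0.52 to 0.048), Ifi47 (-0.042 to 0.42), Gbp7 (-0.069 to 0.17), Mavs (-0.0023 to 0.50), Il12b (-0.37 to 0.11) and H2-DMa (-0.24 to 0.071). For Irf8, Gbp7 and H2-DMa another probe set was the brightest in some of those fits, and otherwise the cause was not tested. Signal near the filter limits what can be seen for the guanylate-binding proteins, Ifit2, Oasl1 and Dhx58.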

Other observations

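Among B cell markers, Ms4a1 (CD20), chosen after its values were seen, read 86.7, 58.5 and 64.8 in f/f and 188, 136 and 116 in d/d, with groups apart and a log2 difference of 0.93 ± 0.19 (limma, unadjusted p = 0.00122, and 0.181 after Benjamini-Hochberg adjustment). Its other probe set had 0.17. The other 5 B cell markers tested had differences between -0.18 and 0.21, 2 of them positive, so the list did not move as one. Array weights brought Ms4a1 past the threshold (limma, adjusted p = 0.0364), and its adjusted p in the alternatives spanned 0.0364 to 0.63.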
